A study of Homo sapiens with 7 samples.

Results

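Replication-independent histone variant genes were described in HEK-293 cells kept in acidified medium or with a kinase inhibitor. The 9 genes, H3-3A, H3-3B, H2AZ1, H2AZ2, H2AX, H2AJ, MACROH2A1, MACROH2A2 and H1-10, were taken by name, not by a threshold on their values, and are 9 of the 19978 genes in the table. All 9 passed the filter on low counts. HEK-293, an established line, descends from human embryonic kidney. Poly(A)-selected RNA was sequenced after 48 h in 3 conditions. The control samples (n = 2) were kept in DMEM of pH 7.4 with the vehicle DMSO. The acidosis samples (n = 3) were kept in DMEM of pH 6.6 with DMSO. The SRPIN340 samples (n = 2) were kept in DMEM of pH 7.4 with DMSO and 10 µM SRPIN340. SRPIN340 inhibits the kinases that phosphorylate SR splicing factors. All groups are the same cell line, grown with serum, and the samples of a group are biological repeats by the study's methods.

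DNA in the nucleus is wound around octamers of the core histones H2A, H2B, H3 and H4, and linker histones of the H1 family bind where it enters and leaves. Most histone protein is made in S phase from replication-dependent genes, whose messenger RNAs have no introns and end in a conserved stem-loop instead of a poly(A) tail. Histone variants are made from separate genes throughout the cell cycle, mostly as polyadenylated messenger RNAs, and dedicated chaperones place them at promoters, at sites of DNA damage, or in silent chromatin.

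H3.3 and H2A.Z are each encoded by a pair of genes with the same or nearly the same protein and different DNA. The first 60 coding bases of each gene are shown because they let reads be assigned within a pair, with the bases that differ between the partners in capitals.
H3-3A: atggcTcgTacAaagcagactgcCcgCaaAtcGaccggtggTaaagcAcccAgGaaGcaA
H3-3B: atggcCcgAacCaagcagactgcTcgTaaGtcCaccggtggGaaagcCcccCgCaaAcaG
H2AZ1: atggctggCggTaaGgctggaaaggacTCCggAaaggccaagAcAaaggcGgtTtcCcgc
H2AZ2: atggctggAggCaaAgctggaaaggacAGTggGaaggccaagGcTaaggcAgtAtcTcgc
These sequences come from the GENCODE release 44 transcripts on GRCh38. H3-3A and H3-3B differed at 88 of 408 coding bases, 77 of them at the third codon position, and their longest identical run was 14 bases. H2AZ1 and H2AZ2 differed at 75 of 384 coding bases, 64 of them at the third codon position, and their longest identical run was 23 bases. A stretch of 31 bases, the length of word a transcript quantifier commonly matches, therefore never fell within the coding run shared by either pair. Other genes share more. Of the distinct 31-base words of the main transcript, 76.8% of H3-3A and 22.8% of H2AZ1 also occurred in other annotated genes, among them processed pseudogenes of both and a long non-coding gene for H3-3A, and 14.2% of H3-3B occurred in the protein-coding gene H3-5. For H2AZ2, 509 of 2996 words did so, with the pseudogene H2AZ2P1 holding the most of these words. H2AX shared 62 of its 1562 words with other genes, among them replication-dependent H2A genes, and H2AJ shared 19 of its 590. H2AX and H2AJ had 14 such words in common. The part of replication-dependent genes in the H2AX count was not tested. Whether the quantified transcriptome held these pseudogenes is not given in the sources used here. If it did, the count of H3-3A would be the least certain of the 9 by this measure, whereas H1-10, MACROH2A1 and MACROH2A2 shared no such word with any other gene. Words were compared in the sense direction only, so overlap with genes on the opposite strand, such as AIFM2 for MACROH2A2, was not covered.

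The deposited values are estimated counts, with totals of 13615816 to 24110460 per sample, lowest in acidosis. Levels are given as CPM, the counts scaled to the same library size with TMM factors. The mean factor of the control group was 1.18, that of the SRPIN340 group 1.21 and that of the acidosis group 0.79. Changes are log2 fold changes from edgeR's quasi-likelihood test, in which a gene passed at a Benjamini-Hochberg adjusted p under 0.05. The scaling matters in acidosis. With libraries scaled by their totals alone, the median log2 fold change of all 14863 tested genes moved from -0.052 to -0.63, and the share of passing genes that were higher moved from 48.8% to 22.8%. The 7 HEK-293 markers were detected in every sample, with a summed level of 1592 to 1654 CPM at pH 7.4 and 3727 to 3744 CPM at pH 6.6, and PAX2 was the lowest of them at 1.19 to 7.06 CPM. In acidosis 5 of the 7 passed as higher and 2 as lower, or 2 and 3 with library totals alone, and most of the summed level was VIM at 867 CPM in control and 2714 CPM in acidosis. The 7 markers of other cell types summed to 2.41 to 6.64 CPM, and the T cell marker CD3E and the beta cell marker INS were at 0.

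In acidosis, 7 of the 9 variant genes were higher than in control and 2 were lower. H1-10, a linker histone variant, rose most and MACROH2A2, which encodes a macroH2A of silent chromatin, fell most. The H3.3, H2A.Z and H2AX genes and H2AJ rose between 1.62-fold and 2.49-fold. Among all tested genes 32.5% passed as higher and 34.2% as lower under TMM scaling. With a required absolute log2 fold change over 1, 5 of the 9 were higher and 1 lower, against 14.4% and 19.1% of all tested genes. This count depends on the TMM scaling. With library totals alone, H1-10 at 2.19 and MACROH2A2 at -2.93 stayed beyond that limit. H2AX at 0.50, H3-3A at 0.54, H2AZ2 at 0.60 and H3-3B at 0.74 did not. The median log2 fold change of the 9 genes was 1.08, against -0.052 for all tested genes. Their median absolute log2 fold change was 1.11, against 0.74 for all tested genes. The CPM of the control and acidosis samples did not overlap for any of the 9, as was so for 76.5% of all tested genes. Since this is RNA from whole cultures, fewer cells of a kind and less RNA per cell cannot be told apart. With library totals alone, 6 of the 9 genes passed as higher and 2 as lower, against 16.2% and 55% of all tested genes under that scaling.

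**Figure D1:**
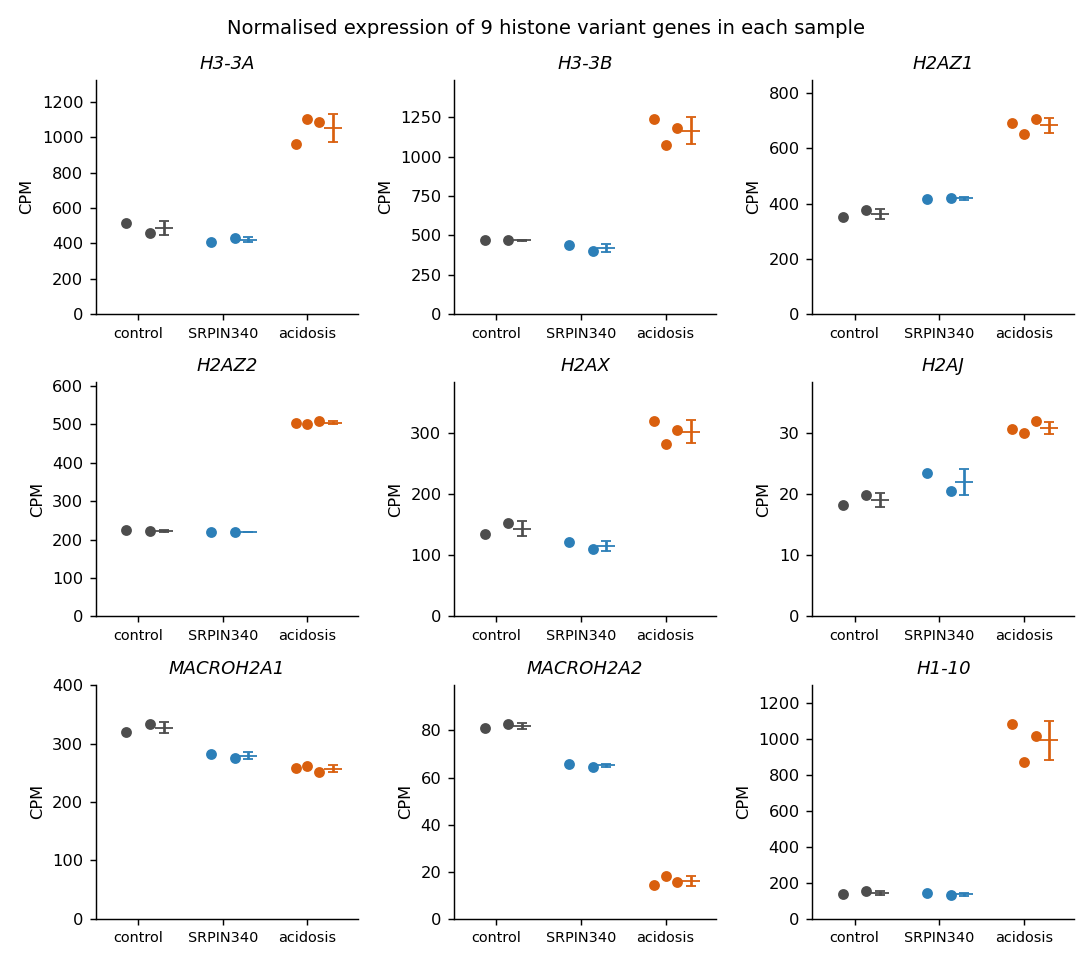
Level of each of the 9 genes in TMM-scaled CPM (linear axes from 0, a separate scale per gene) in the 2 control, 2 SRPIN340 and 3 acidosis samples. Points are samples, and the bar beside them is the mean ± SD. The acidosis points sit above the control points for 7 genes and below them for MACROH2A1 and MACROH2A2.

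**Figure D2:**
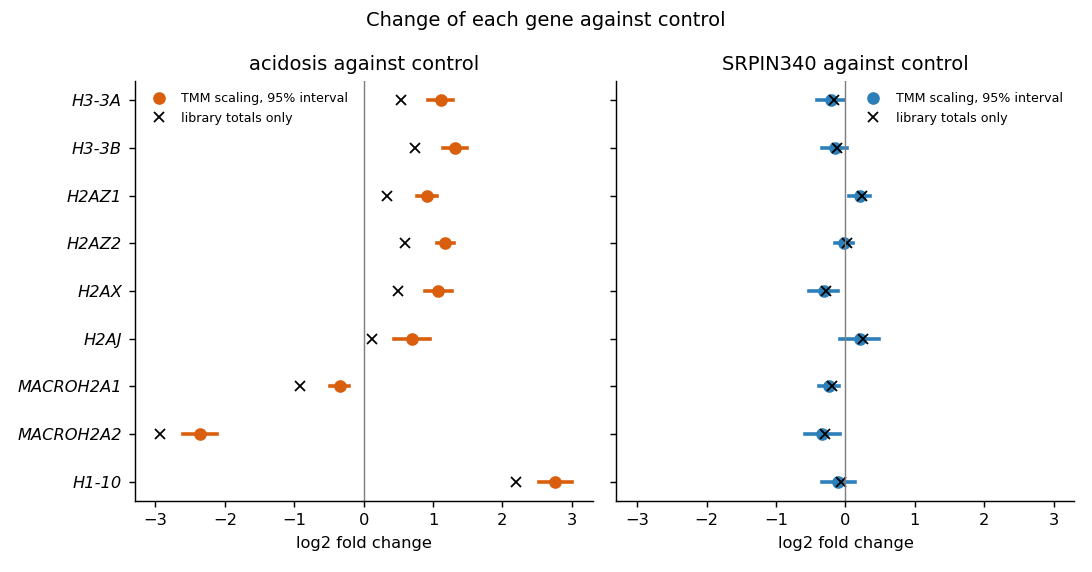
Log2 fold change of each gene against control in acidosis (left) and with SRPIN340 (right). Points with bars are TMM-scaled values with their 95% confidence interval, and crosses are values with library totals alone. In acidosis each cross lies to the left of its point, and H2AJ moves from 0.70 to 0.12.

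H3-3A and H3-3B encode H3.3, the H3 variant deposited outside S phase at active genes, telomeres and pericentric repeats. H3-3A (ENSG00000163041.13) has 4 exons in its main transcript at chr1:226061851-226072019 on the plus strand of GRCh38. Its level was 514 and 458 CPM in control, 409 and 431 CPM with SRPIN340, and 959, 1104 and 1088 CPM in acidosis. Every acidosis sample was above every sample at pH 7.4. The log2 fold change in acidosis was 1.11 ± 0.081 (SE), or 2.16-fold, with an adjusted p of 1.68e-06 by edgeR's quasi-likelihood test. H3-3B (ENSG00000132475.10), with 4 exons at chr17:75776434-75785893 on the minus strand, was at 467 and 469.6 CPM in control, 437 and 403 CPM with SRPIN340, and 1242, 1074 and 1184 CPM in acidosis. Here too the acidosis samples lay apart from the rest. H3-3B rose by 1.32 ± 0.074 (SE) on the log2 scale, or 2.49-fold, with an edgeR adjusted p of 3.18e-07. With library totals alone the log2 fold changes were 0.54 for H3-3A and 0.74 for H3-3B, and both passed. UNK, on the opposite strand, shares 179 exonic bases with H3-3B (2.92% of its exonic bases) and rose by 1.04 on the log2 scale. Whether the quantification used strand is not given in the sources used here, and the part of UNK in the H3-3B count was not tested.

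H2AZ1 and H2AZ2 encode the H2A.Z proteins, which flank active promoters and are also found at enhancers and in heterochromatin. H2AZ1 (ENSG00000164032.12), with 5 exons at chr4:99948086-99950355 on the minus strand, was at 350.0 and 376 CPM in control, 416 and 422 CPM with SRPIN340, and 691, 653 and 708 CPM in acidosis. The acidosis samples were highest, and the SRPIN340 samples lay just above the control samples. Its log2 fold change in acidosis was 0.91 ± 0.063 (SE), or 1.88-fold, with an edgeR adjusted p of 1.17e-06. H2AZ2 (ENSG00000105968.19), with 5 exons at chr7:44826791-44848087 on the minus strand, was at 224 and 221 CPM in control, 219.9 and 219.6 CPM with SRPIN340, and 502, 502 and 508 CPM in acidosis. The replicates of H2AZ2 were the closest of the 9 genes in acidosis, with a coefficient of variation of 0.698%, and those of MACROH2A2 were the widest at 12.4%. H2AZ2 rose by 1.18 ± 0.056 (SE) on the log2 scale, or 2.26-fold, with an edgeR adjusted p of 1.21e-07. With library totals alone the log2 fold changes were 0.34 for H2AZ1 and 0.60 for H2AZ2, and both passed.

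H2AX is the H2A variant that is phosphorylated around DNA double-strand breaks. It (ENSG00000188486.4) lies in 1 exon at chr11:119093874-119095465 on the minus strand. Its level was 134 and 153 CPM in control, 121 and 110.0 CPM with SRPIN340, and 319, 282 and 305 CPM in acidosis. The SRPIN340 samples were lowest and the acidosis samples highest, without overlap. H2AX rose in acidosis by 1.08 ± 0.087 (SE) on the log2 scale, or 2.11-fold, with an edgeR adjusted p of 3.33e-06, and by 0.50 with library totals alone, which also passed.

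H2AX was also the member that carries the 3′ end of a replication-dependent histone gene. The stem-loop of its transcript is shown with 5 flanking bases on each side, and capitals mark the 16 bases of the stem and loop.
H2AX stem-loop: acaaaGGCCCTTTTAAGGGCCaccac
The printed bases lie at chr11:119094893-119094918 (GRCh38, minus strand). The stem-loop itself lies at chr11:119094898-119094913, 49 bases after the stop codon, and 1024 bases of the annotated transcript follow it. Both annotated H2AX transcripts hold a stem-loop of this pattern. No transcript of the other 8 genes does, whereas 69 of 69 replication-dependent histone genes and 107 of 19676 protein-coding genes (0.544%) have at least 1 such transcript. Here the replication-dependent genes held 5.93% and 6.87% of all histone counts in the control samples and 35.5% to 36.2% in the acidosis samples. Of the 69, 43 passed the filter on low counts, some of them only through their acidosis values. Of these 43, 39 were higher in acidosis and 0 lower, against 32.5% and 34.2% of all tested genes. The count of 39 therefore follows in part from the filter. The split of H2AX transcripts between ends at the stem-loop and at the distal poly(A) site was not analysed here.

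H2AJ encodes an H2A variant whose protein has been described as accumulating in senescent cells with DNA damage. The gene (ENSG00000246705.5) lies at chr12:14774405-14778002 on the plus strand, and its main transcript has 1 exon. Its level was the lowest of the rising genes, at 18.3 and 19.8 CPM in control, 23.5 and 20.4 CPM with SRPIN340, and 30.7, 29.9 and 31.9 CPM in acidosis. The acidosis samples were above all others. H2AJ rose by 0.70 ± 0.12 (SE) on the log2 scale, or 1.62-fold, with an edgeR adjusted p of 0.00052, but with library totals alone the log2 fold change was 0.12 and did not pass (adjusted p = 0.38). It was the only one of the 9 genes that did not pass under that scaling in acidosis against control.

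MACROH2A1 and MACROH2A2 encode macroH2A, which joins a histone fold to a large macro domain and is enriched in silent chromatin such as the inactive X chromosome. Both fell in acidosis, under either scaling, but by very different amounts. MACROH2A1 (ENSG00000113648.17), with 9 exons in its main transcript at chr5:135334381-135399914 on the minus strand, was at 321 and 334 CPM in control, 283 and 275 CPM with SRPIN340, and 259, 262 and 251 CPM in acidosis. The 3 groups did not overlap, with the SRPIN340 samples between the others. In acidosis its log2 fold change was -0.35 ± 0.059 (SE), or 1.27-fold lower, with an edgeR adjusted p of 0.00050, and it was -0.92 with library totals alone. MACROH2A2 (ENSG00000099284.15), with 9 exons at chr10:70052544-70112282 on the plus strand, was at 81.1 and 82.9 CPM in control, 65.6 and 64.6 CPM with SRPIN340, and 14.3, 18.3 and 15.8 CPM in acidosis. Every acidosis sample was far below every sample at pH 7.4. The counts behind the acidosis values were 241, 199 and 185 reads. MACROH2A2 fell by 2.35 ± 0.11 (SE) on the log2 scale, or 5.11-fold, with an edgeR adjusted p of 1.02e-07, and by 2.93 with library totals alone. Only 4.05% of all tested genes had a lower log2 fold change. AIFM2, on the opposite strand, shares 986 exonic bases with MACROH2A2 (6.58% of its exonic bases) and had a log2 fold change of -0.73, from 20.3 to 12.2 CPM. Its part in the MACROH2A2 count was not tested.

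H1-10, also known as H1.X, encodes a linker histone that is not tied to S phase. It (ENSG00000184897.7) lies in 1 exon at chr3:129314771-129316286 on the minus strand. Its level was 138 and 154 CPM in control, 141 and 131 CPM with SRPIN340, and 1086, 872 and 1020.0 CPM in acidosis. The control and SRPIN340 samples overlapped, and the acidosis samples stood far above both. H1-10 rose by 2.76 ± 0.11 (SE) on the log2 scale, or 6.80-fold, with an edgeR adjusted p of 3.57e-08, and by 2.19 with library totals alone. Of all tested genes, 98.2% had a lower log2 fold change.

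The promoters of the genes that rose most and fell most are shown as the 150 bases before the RefSeq transcription start (GRCh38.p14). Capitals mark CCAAT and TATAAA on the printed strand, the core boxes bound by NF-Y and TBP.
H1-10, chr3:129316287-129316436, minus strand: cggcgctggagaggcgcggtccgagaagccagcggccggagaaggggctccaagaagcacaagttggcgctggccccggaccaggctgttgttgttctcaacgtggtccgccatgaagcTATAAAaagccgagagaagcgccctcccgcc
H3-3B, chr17:75779780-75779929, minus strand: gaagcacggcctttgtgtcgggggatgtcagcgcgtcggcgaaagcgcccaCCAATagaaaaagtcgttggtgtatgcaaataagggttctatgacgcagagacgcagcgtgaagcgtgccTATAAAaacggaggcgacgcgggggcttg
MACROH2A2, chr10:70052696-70052845, plus strand: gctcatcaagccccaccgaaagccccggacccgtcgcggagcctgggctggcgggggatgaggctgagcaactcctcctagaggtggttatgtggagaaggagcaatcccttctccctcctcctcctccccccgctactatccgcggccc
All 9 genes matched this table, with 13 windows from 250 bases before to 50 bases after a start, and motifs were searched on both strands. TATAAA was in the windows of H1-10, H2AX, H2AZ1 and H3-3B, against 11.5% of all 35116 windows. CCAAT occurred 4 times each in the windows of H2AX, H2AZ2 and H3-3B and 3 times each in those of H2AJ and H2AZ1, and 34.6% of all windows held it at least once. H3-3A had 1 copy of CCAAT in 3 of its 4 windows, MACROH2A1 had 2 copies in 1 of its 2 windows, and the windows of H1-10 and MACROH2A2 had none. No window of the 9 genes held TGACGT (7.98% of all windows), TGANTCA (7.71%), TTTGGCGC (0.652%) or TTTCCCGC (1.63%). These matches describe letters in these windows only.

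The ratio within a pair does not depend on how libraries are scaled, and it was compared between groups for 4 pairs. MACROH2A2 made up 19.9% and 20.2% of the macroH2A counts in control, 19.1% and 18.8% with SRPIN340, and 5.25% to 6.50% in acidosis. The log2 ratio of MACROH2A2 to MACROH2A1 was lower in acidosis by 2.00. H2AZ2 made up 37.0% and 39.1% of the H2A.Z counts in control, 34.3% and 34.6% with SRPIN340, and 41.8% to 43.5% in acidosis, a log2 ratio difference from control of 0.27. H2AJ made up 11.5% and 11.96% of the H2AJ and H2AX counts in control, 15.7% and 16.3% with SRPIN340, and 8.77% to 9.57% in acidosis, a log2 ratio difference of -0.38. For these 3 pairs the control and acidosis samples did not overlap, and the exact two-sided permutation test gave p = 0.1, the smallest that 2 against 3 samples allow (adjusted p = 0.13 over the 4 pairs). H3-3B made up 47.6% and 50.6% of the H3.3 counts in control and 49.3% to 56.4% in acidosis. These groups overlapped, the log2 ratio difference was 0.20, and the exact permutation p was 0.4. Against all 4 samples at pH 7.4, the exact permutation p was 0.029 for the macroH2A pair, 0.057 for the H2A.Z pair, 0.057 for H2AJ and H2AX and 0.17 for the H3.3 pair, and after adjustment over the 4 pairs none was under 0.05 (the first 3 were at 0.076). With SRPIN340 the difference from control was 0.52 for H2AJ to H2AX and -0.23 for H2AZ2 to H2AZ1, with an exact two-sided permutation p of 0.33 for each, the smallest that 2 against 2 samples allow.

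**Figure D3:**
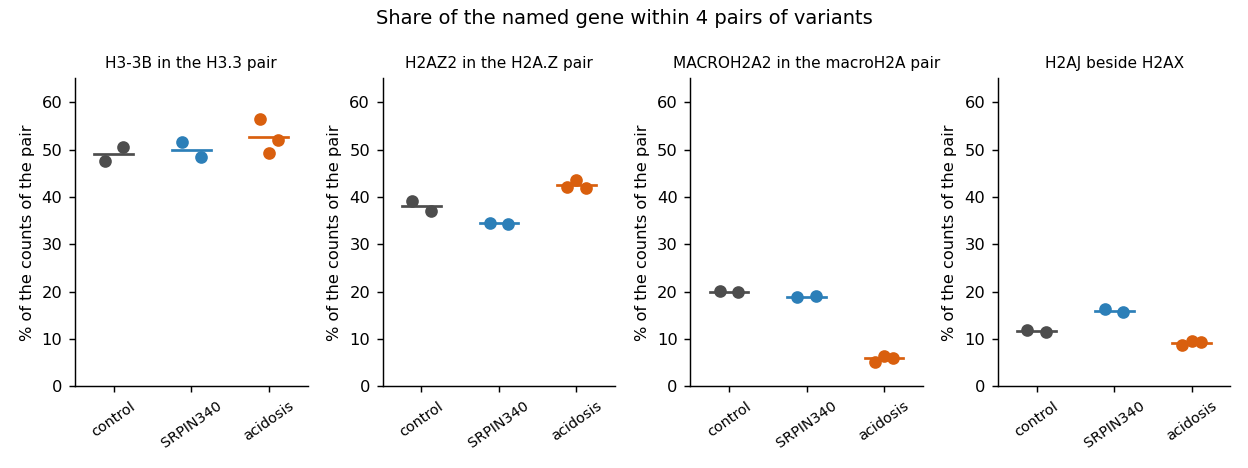
Share, in percent of the estimated counts of the 2 genes named, of H3-3B, H2AZ2, MACROH2A2 and H2AJ in each sample (points) with the group mean (line). The MACROH2A2 share lies between 18.8% and 20.2% in the 4 samples at pH 7.4 and between 5.25% and 6.50% in acidosis, while the H3-3B share overlaps between groups.

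The make-up of the variant messenger RNAs differed between pH 7.4 and pH 6.6. As a share of the counts of the 9 genes, H1-10 was at 6.47% ± 0.46 (SD, n = 2) in control, 6.49% ± 0.27 (SD, n = 2) with SRPIN340 and 19.8% ± 1.6 (SD, n = 3) in acidosis. MACROH2A1 was at 14.5% ± 0.33 in control and 5.15% ± 0.29 in acidosis, and MACROH2A2 at 3.63% ± 0.032 and 0.324% ± 0.051. H3-3A had a mean share of 21.5% in control, 20.04% with SRPIN340 and 21.03% in acidosis, and its replicates overlapped between control and acidosis. The 9 genes together held 0.263% and 0.268% of all counts in control, 0.256% and 0.251% with SRPIN340, and 0.384% to 0.402% in acidosis. These last shares use the library totals, without TMM factors, and they too were highest in acidosis.

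**Figure D4:**
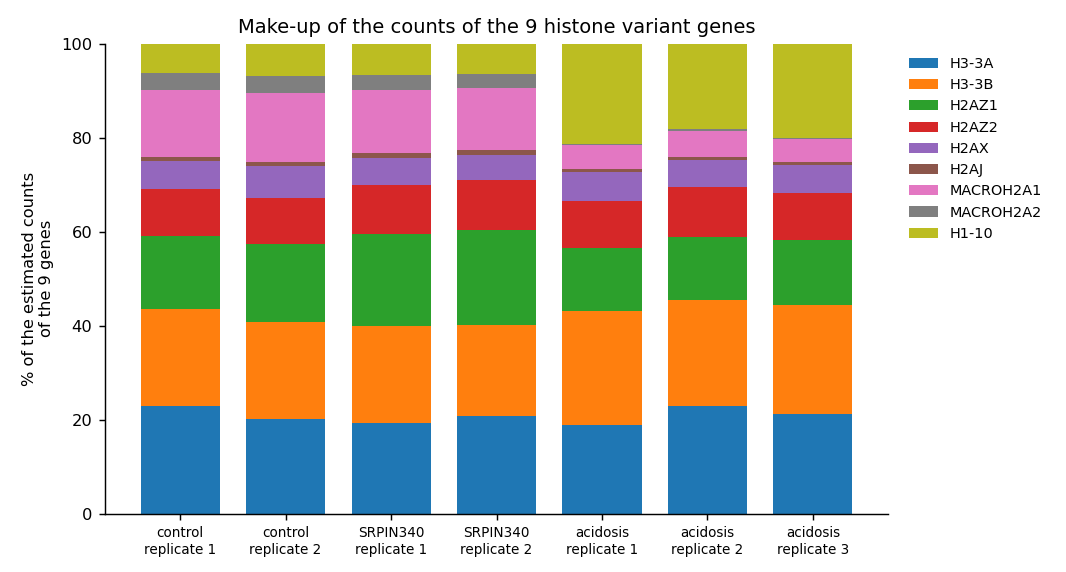
Make-up of the counts of the 9 genes in each of the 7 samples, in percent of their summed estimated counts (stacked bars from 0 to 100). The H1-10 segment takes 6.14% to 6.79% of the bar in the 4 samples at pH 7.4 and 18.2% to 21.3% in acidosis, and both macroH2A segments are smaller in acidosis.

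Levels of different genes were compared per kilobase of the main transcript (CPM per kb). The counts cover all transcripts of a gene and the length only the main transcript, and the order under other lengths was not tested. The place of H3-3A also rests on a count whose words are mostly shared with other genes. In control, H3-3A at 455 ± 37 CPM per kb and H2AZ1 at 419 ± 22 CPM per kb were highest, and their samples overlapped. H3-3B at 173 and MACROH2A1 at 171 CPM per kb came next and also overlapped, followed by H1-10 at 96.4 and H2AX at 90.2 CPM per kb, which overlapped too. H2AZ2 at 73.6, MACROH2A2 at 42.4 and H2AJ at 30.7 CPM per kb closed the order without overlap. In acidosis H1-10 had moved from the fifth to the third place, at 655 ± 72 CPM per kb, below H3-3A at 982 and H2AZ1 at 789 CPM per kb. H3-3B at 431, H2AX at 189.9, H2AZ2 at 167, MACROH2A1 at 134 and H2AJ at 49.7 CPM per kb followed, and MACROH2A2 was last at 8.35 ± 1.0 CPM per kb. No neighbours in the acidosis order overlapped. With SRPIN340, H2AZ1 at 483 CPM per kb stood above H3-3A at 392 CPM per kb without overlap, while H2AZ2 and H2AX overlapped, as did H2AJ and MACROH2A2.

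With SRPIN340, 0 of the 9 genes passed edgeR's test against control. At an unadjusted p under 0.05 by the same test, 1 was higher (H2AZ1) and 4 were lower (H2AX, H3-3A, MACROH2A1 and MACROH2A2). DESeq2 passed 2, both lower, and of the 9964 genes to which DESeq2 gave an adjusted p, 3.25% passed as higher and 5.89% as lower. These were H2AX with a log2 fold change of -0.32 and a DESeq2 adjusted p of 0.021, and MACROH2A1 with -0.24 and a DESeq2 adjusted p of 0.014. Among all tested genes, 0.767% passed as higher and 1.53% as lower by edgeR. The CPM of the control and SRPIN340 samples did not overlap for 8 of the 9 genes, the exception being H1-10, and 54.1% of all tested genes did not overlap. The median log2 fold change of the 9 genes was -0.16, against 0.0024 for all tested genes, and their median absolute change of 0.21 was close to the 0.18 of all tested genes. The largest in size was MACROH2A2 at -0.33, with a 95% confidence interval of -0.58 to -0.08 and an edgeR adjusted p of 0.16. H2AX was at -0.31, with an interval of -0.52 to -0.11 and an edgeR adjusted p of 0.12. H2AZ1 was at 0.20, with an interval of 0.05 to 0.36 and an edgeR adjusted p of 0.15, and H2AJ was at 0.21 with an interval of -0.08 to 0.49. The interval of H1-10 was -0.34 to 0.13 and that of H2AZ2 -0.15 to 0.11, which leave out changes of the size seen in acidosis. The interval of MACROH2A1 was -0.38 to -0.09, which holds its change of -0.35 in acidosis.

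Between acidosis and SRPIN340, which shares the acidosis samples with the comparison above, 7 genes were higher in acidosis and 1 was lower, against 32.8% and 35% of all tested genes. The CPM of these groups did not overlap for any of the 9, as was so for 78.3% of all tested genes. H1-10 differed by 2.87 ± 0.11 (SE) on the log2 scale and H3-3B by 1.47 ± 0.075 (SE). H2AX differed by 1.39 ± 0.088 (SE), and H2AZ1 by 0.71 ± 0.063 (SE). MACROH2A2 was lower in acidosis, at -2.02 ± 0.11 (SE) with an edgeR adjusted p of 2.53e-07, while MACROH2A1 differed by -0.12 ± 0.059 (SE) and did not pass (edgeR adjusted p = 0.11). With library totals alone, under which 15.8% of all tested genes passed as higher and 56.9% as lower, MACROH2A1 was at -0.73 and passed, H2AZ1 was at 0.09 and did not pass, and the sign of H2AJ turned from 0.49 to -0.12, which did not pass.

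The genes that handle these variants did not all move in the same direction. The counts on each list stand beside shares of 32.5% higher and 34.2% lower over all tested genes with TMM factors, and of 16.2% higher and 55% lower with library totals alone. On a list of 11 genes of H3.3 deposition, 1 was higher in acidosis and 8 were lower (median -0.33), against 0 and 10 with library totals alone. HIRA, which deposits H3.3 at active genes, fell from 97.0 to 28.1 CPM, a log2 fold change of -1.79 ± 0.10 (SE) with an edgeR adjusted p of 3.46e-07. The H3-H4 chaperone ASF1A was at -1.43 and UBN1, a subunit of the HIRA complex, at -1.06 on the log2 scale, and both passed. The gene that rose, named after its value was seen, was DAXX, the H3.3 chaperone of heterochromatin, at 0.41, and it was at -0.17 without passing when library totals alone were used. On a list of 26 genes of H2A.Z exchange, 9 were higher and 9 lower (median 0.05), close to the shares of all tested genes, and 1 and 19 with library totals alone. MEAF6, a TIP60 complex subunit, was at 1.11, and the INO80 complex subunits ACTR5 and ACTR8 were at -1.14 and -1.10 on the log2 scale. On a list of 14 genes that phosphorylate, dephosphorylate or read H2AX, 2 were higher and 7 lower (median -0.23), against 1 and 11 with library totals alone. The list holds both kinases and phosphatases, so these counts give no direction for the mark. The ubiquitin ligase RNF168, which acts downstream of phosphorylated H2AX, was at 1.14, the H2AX tyrosine kinase BAZ1B at -1.16 and the H2AX tyrosine phosphatase EYA2 at -1.23 on the log2 scale.

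Of 17 general and replication-coupled chaperones, 7 were higher and 6 lower in acidosis (median 0.02), against 1 and 12 with library totals alone. RBBP4, a histone-binding subunit of several complexes, was at -1.32 and CHAF1B, a subunit of the chaperone CAF-1, at -1.20 on the log2 scale, while the chaperone SET was at 1.03. Of 16 DNA replication genes, 5 were higher and 7 lower (median -0.06), against 4 and 12 with library totals alone. RRM2, a ribonucleotide reductase subunit, was at 1.27, the origin licensing factor CDT1 at 1.19 and the helicase component CDC45 at -1.21 on the log2 scale. The centromeric H3 variant CENPA was at -0.98 ± 0.15 (SE) with an edgeR adjusted p of 0.00023. With SRPIN340, 0 genes passed on the list of H3.3 deposition and on that of genes that phosphorylate, dephosphorylate or read H2AX. In the same comparison 1 gene of H2A.Z exchange was lower, 1 general chaperone was higher and 1 lower, and 3 DNA replication genes were lower. Among all tested genes 0.767% passed as higher and 1.53% as lower with SRPIN340.

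**Figure D5:**
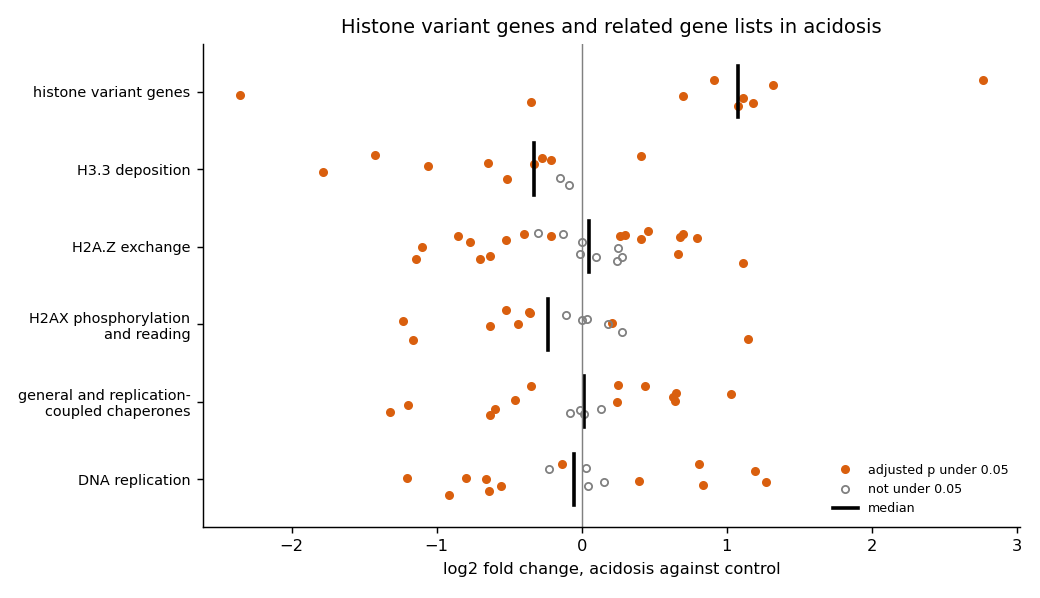
Log2 fold change in acidosis against control for the 9 variant genes and for the tested genes of 5 related lists. Each point is a gene, filled where the edgeR adjusted p is under 0.05, and the black bar is the median of the list. The variant genes have a median of 1.08, and the H3.3 deposition genes have a median of -0.33.

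Many other genes had a pattern over the 7 samples like that of the variant genes. The comparison covered 10118 genes that averaged 10 CPM or more. The gene most like each variant by Pearson r of log2 CPM was IQGAP3 for H1-10, CKB for H2AX, RPL23 for H2AZ1, ZNF592 for H2AZ2, COA1 for H2AJ, PPIG for H3-3A, RNF19B for H3-3B and RRP36 for MACROH2A2, with r between 0.997 and 1.00. MACROH2A1 was apart, since its closest gene, SRSF6, had an r of 0.984 and only 50 genes had an r over 0.95, against 898 for H2AJ and 2572 for H2AZ2. The 7 points share their libraries and fall into 2 levels of pH, so these values describe the samples and carry no test.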

How the data were processed

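The members, gene lists and motifs were chosen with earlier results of these data known. Per the labels and the study's methods, the authors trimmed reads with Trim Galore 0.6.6 and Trimmomatic 0.39, quantified a Gencode GRCh38.p13 transcriptome with Salmon 1.5.1 and used tximport to obtain gene values. The deposited values are estimated counts, not normalized between samples. The tximport option, the use of strand and the presence of pseudogenes in the transcriptome are not given in the sources used here. The authors' comparisons used DESeq2.

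Here each estimated count was rounded to the nearest whole number. Tests used edgeR 4.0.16 under R 4.3.3 (TMM, filterByExpr, quasi-likelihood test, Benjamini-Hochberg over 14863 genes), with all 7 samples in 1 fit. The standard error was taken from the test statistic. CPM use TMM-scaled totals, and CPM per kb the GENCODE release 44 canonical transcript. Totals of 13615816 to 24110460 counts limit the genes of low level most, and intervals cover the spread between these samples. Ratios within pairs used an exact permutation test over samples. The test scripts were checked on simulated counts, where DESeq2 made more false calls than edgeR and the accepted share of false calls was widened after that was seen. Replicate pairs differed beyond sampling noise (chi-square per degree of freedom 6.77 to 11.96).

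The text names all 9 members, the 3 passing genes with the largest absolute log2 fold change in acidosis on each related list, and the gene most like each member. For replication-dependent histones and cell type markers, counts and sums are given in place of those genes, apart from PAX2, VIM, CD3E and INS, and DAXX was named after its value was seen. Of a list of other replacement variants, only CENPA is given, and a further gene is not reported here. Alternatives were RLE size factors, library totals alone, no filter, a mean of at least 6 CPM, DESeq2 1.42.0, only the 2 groups compared, a replicate block, a fold limit and each replicate left out. Sequences were read with Python 3.11.15 and figures drawn with matplotlib 3.10.9.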

Additional observations from a re-analysis of the deposited data

How the results depend on the processing

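With library totals alone, 2 members in place of 1 were lower in acidosis than with SRPIN340, since MACROH2A1 passed at -0.73, and the log2 fold change of H2AJ in that comparison turned from 0.49 to -0.12. With DESeq2, 2 members in place of 0 were lower with SRPIN340 than in control, and the cause was not tested. With an absolute log2 fold change over 1 required, 1 member in place of 2 was lower in acidosis than in control, since MACROH2A1 was at -0.35. H2AJ did not pass between acidosis and SRPIN340 without SRPIN340 replicate 2 (0.39, edgeR adjusted p = 0.065). RLE size factors, the other filters and the fits of only the 2 groups compared changed no member's call. Each replicate was also left out in turn. The log2 fold change in acidosis against control then lay between 2.68 and 2.85 for H1-10 and between -2.45 and -2.27 for MACROH2A2. The difference between acidosis and control in the log2 ratio of H3-3B to H3-3A lay between 0.09 and 0.30.

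Replicate numbers were shared between groups. After each gene was centred on its group mean, the correlations of same-numbered samples lay between -0.11 and 0.063. In a group of 2 the centred samples mirror each other, so these values cannot tell whether the numbers pair the samples. With a replicate block, 7 members were higher and 2 lower in acidosis, H1-10 was at 2.74 and MACROH2A2 at -2.34, and no member's call changed. Over all genes the block moved the SRPIN340 calls from 114 higher and 228 lower to 13 and 38.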
